A study of Saccharomyces cerevisiae with 13 samples.

Results

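SMER4 and SMER5, 2 compounds known by code names, were taken as one treated group of 2 of the 13 arrays and set against the 3 arrays of cells given only the solvent, DMSO. The members were found by the array titles alone, and all 5449 genes with 1 gene name on a probe set were tested. All cells were the haploid budding yeast strain BY4741 grown at 30°C in YPD, a rich medium, to mid-log phase and exposed for 30 min. The groups used here were SMER4 at 20 µM (1 array), SMER5 at 20 µM (1 array), SMER1 at 20 µM (2 arrays), SMER2 at 20 µM (1 array), SMER3 at 20 µM (1 array), rapamycin at 100 nM (2 arrays) and DMSO (3 arrays), while 2 arrays of SMER1 with rapamycin entered the estimate of the spread. The arrays were Affymetrix one-colour yeast arrays read as one log2 signal per probe set, so a value of 1 more means a doubled signal. Replicates carry numbers in the labels with no word on separate cultures, so p-values measure only the spread between these arrays, and SMER4 and SMER5 had no replicate of their own.

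SMER stands for small molecule enhancer of rapamycin. Rapamycin binds the prolyl isomerase Fpr1, and the complex inhibits TOR complex 1, the kinase complex that couples yeast growth to nutrients. In yeast, loss of TOR complex 1 activity lowers the mRNAs for making ribosomes and raises those for using poor nitrogen sources. Yeast also answers many foreign compounds through the transcription factors Pdr1 and Pdr3, which raise the mRNAs of membrane pumps such as Pdr5, Snq2 and Yor1, a set called pleiotropic drug resistance.

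The strain markers were read on the 5 arrays of SMER4, SMER5 and DMSO. Genes specific to a cells were bright, with MFA2, which encodes the a-factor pheromone, at 13.22 to 13.56 and STE2, the receptor for alpha-factor, at 13.19 to 13.38. The genes specific to alpha cells were not alike. The alpha-factor genes MF(ALPHA)1 and MF(ALPHA)2 were at 2.74 to 4.04 and 5.46 to 7.01, and STE3 was at 6.58 to 7.21. SAG1 was bright, at 9.95 to 10.23, against array medians of 10.99 to 11.07. Among the genes altered in BY4741, URA3 was at 3.01 to 4.55, MET17 at 4.12 to 5.75 and LEU2 at 7.76 to 8.25. HIS3, of which the strain carries a partly deleted allele, was at 12.53 to 12.7.

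The SMER4 and SMER5 arrays lay close to each other and to the solvent arrays. Over the 5449 genes, the median absolute log2 difference was 0.058 between SMER4 and SMER5, 0.05 between SMER4 and DMSO replicate 2, and 0.07 between SMER5 and DMSO replicate 2. From DMSO replicates 1 and 3, SMER4 differed by 0.132 and 0.107 and SMER5 by 0.147 and 0.118. The 3 pairs of DMSO arrays differed by 0.096 to 0.172, so SMER4, SMER5 and DMSO replicate 2 were nearer to one another than any pair of solvent arrays. The distances to the 2 rapamycin arrays were larger, 0.365 and 0.412 for SMER4 and 0.36 and 0.401 for SMER5.

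Against DMSO, 2 genes rose and none fell in the fit without the replicate numbers. GRE2, a methylglyoxal reductase that uses NADPH, rose 1.77-fold. DAK2, a dihydroxyacetone kinase with a dim signal, rose 2.01-fold with values under 5 set to 5, and this fold depends on the floor. GRE2 and DAK2 were the 2 of 5449 genes (0.0367%) with an adjusted p under 0.05 in limma with Benjamini-Hochberg adjustment. In the same fit 271 genes (4.97%) had an unadjusted p under 0.05, 151 higher (2.77%) and 120 lower (2.2%). This fit did not use the replicate numbers. With the numbers added to the fit as a block, limma called 815 genes, 389 higher and 426 lower. The labels do not say whether the numbers pair the arrays, and the count of genes called depends on whether they are used. GRE2 and DAK2 encode enzymes that act on the small carbonyl compounds methylglyoxal and dihydroxyacetone, by-products or side branches of sugar breakdown.

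GRE2 (YOL151W) had log2 signals of 11.63 with SMER4 and 11.76 with SMER5, against 10.81, 11.002 and 10.83 on the 3 DMSO arrays. Both treated arrays lay above all solvent arrays. The pooled mean was 11.7 and the DMSO mean was 10.88 ± 0.11 (SD, n = 3), a difference of 0.82 ± 0.077 on the log2 scale (SE; 95% interval 0.65 to 1; limma, adjusted p = 0.0105). Each compound alone gave 0.76 for SMER4 and 0.89 for SMER5, with adjusted p of 0.172 and 0.0811 in the fit with the compounds apart. The same gene was at 11.73 with SMER2, 13.75 and 13.68 with SMER1, 14.02 with SMER3, and 11.57 and 11.6 with rapamycin. All of these arrays were above DMSO, and the SMER4 and SMER5 signals lay near those of SMER2 and rapamycin and below those of SMER1 and SMER3.

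DAK2 (YFL053W) had log2 signals of 6.08 with SMER4 and 5.96 with SMER5, against 4.70, 5.04 and 4.74 on the DMSO arrays. The groups did not overlap here either, but the probe set was dim, with a mean of 5.88 over the 13 arrays. Its DMSO signals lay in the range of MET17, a gene deleted in the strain, so the solvent level may be background. MET17 reached 5.75 on these arrays, and LEU2, a gene altered in the strain, lay at 7.76 to 8.25. The treated level may thus be near background too, and the fold depends on the floor chosen. On the deposited values the difference was 1.19 ± 0.103 on the log2 scale (SE; 95% interval 0.96 to 1.43; limma, adjusted p = 0.0105), with 1.25 for SMER4 alone and 1.14 for SMER5 alone. Their adjusted p were 0.137 and 0.0811. DAK2 was at 3.51 with SMER2, 6.31 and 6.29 with SMER1, 6.89 with SMER3, and 6.21 and 6.16 with rapamycin. SMER2 was thus below every DMSO array for DAK2, while the other treatments were above them.

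**Figure D1:**
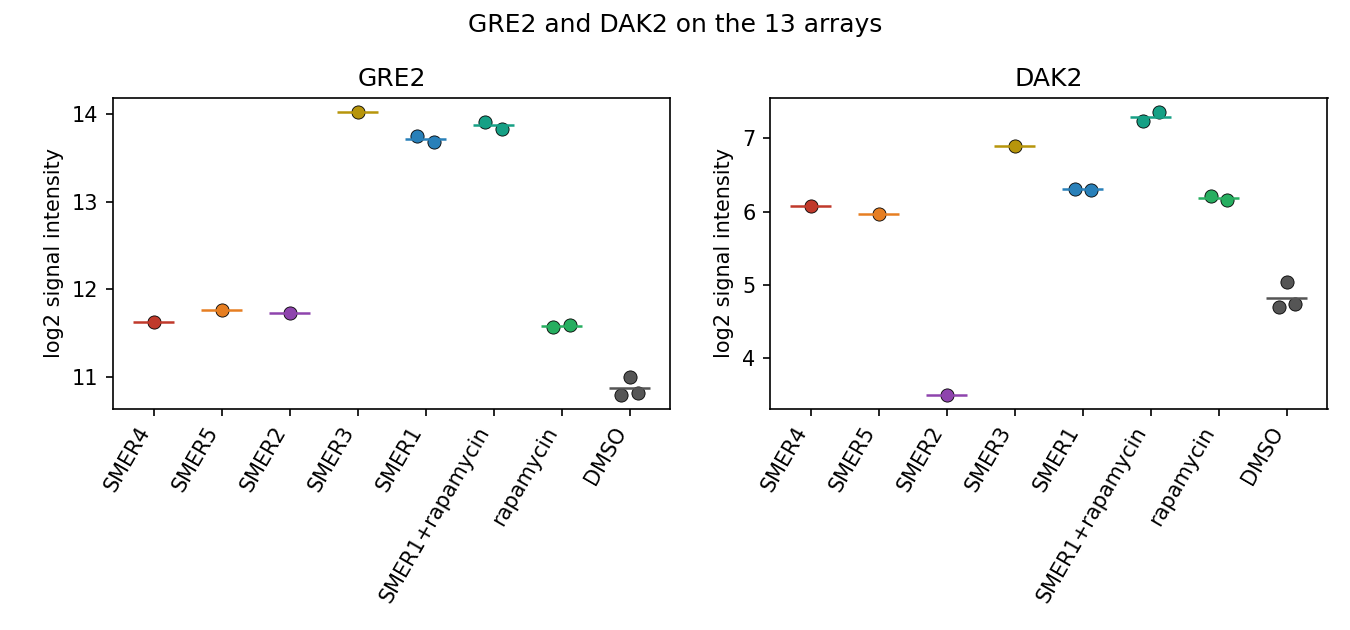
Log2 signal of GRE2 and DAK2 on each of the 13 arrays, by treatment, with one point per array and a line at each group's mean. For GRE2 the SMER4 and SMER5 points, 11.63 and 11.76, lie above the 3 DMSO points and below SMER1 and SMER3, and for DAK2 the SMER2 point, 3.51, is the lowest.

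The compounds were all given at 20 µM for 30 min, and 4 pairs were compared directly: SMER4 with SMER5, and the pool with SMER1, SMER2 and SMER3, the pairs with SMER1 and SMER3 being added after the values were seen. The p-values of this paragraph were adjusted over all genes by limma's Benjamini-Hochberg values and then multiplied by 4. For GRE2 the pool minus SMER1 was −2.01 ± 0.0844 (SE; limma, adjusted p = 2.58e-06) and the pool minus SMER3 was −2.32 ± 0.103 (adjusted p = 8.14e-06), so the signal was lower with SMER4 and SMER5 than with either. The pool minus SMER2 was −0.03 ± 0.103 for GRE2, with a 95% interval of −0.27 to 0.2. DAK2 was 2.03-fold higher in the pool than with SMER2 when values under 5 were set to 5. Its SMER2 signal was under this floor and in the range of the deleted URA3, so the fold depends on the floor. On the deposited values the difference was 2.52 ± 0.139 (limma, adjusted p = 0.0012). The pool minus SMER3 was −0.87 ± 0.139 for DAK2 (limma, adjusted p = 0.00582). The pool minus SMER1 was −0.28 for DAK2 with a 95% interval of −0.54 to −0.02 and did not pass (limma, adjusted p = 0.234). SMER4 minus SMER5 was −0.13 for GRE2 (95% interval −0.41 to 0.15) and 0.11 for DAK2 (−0.28 to 0.51).

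The calls of GRE2 and DAK2 were not held by every subset of arrays. Without SMER5, without SMER4 or without DMSO replicate 3 neither gene was called (limma; adjusted p = 0.172 for GRE2 and 0.137 for DAK2 without SMER5, 0.0811 for both without SMER4 and 0.0734 for both without DMSO replicate 3). Without DMSO replicate 1 GRE2 had an adjusted p of 0.0562. With the intensity trend and robust prior, set together in limma, DAK2 had an adjusted p of 0.901. With the 5 arrays of the pool and DMSO alone the limma adjusted p were 0.193 for GRE2 and 0.168 for DAK2.

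For the other genes, the fit gives an interval for the difference between these arrays, gene by gene. It does not bound the effect of either compound, since each had 1 array. The 95% interval of the pooled difference lay within 2-fold in either direction for 5172 of 5449 genes, or 94.9%, and for 5110 of the 5186 genes with a mean log2 signal of at least 7, or 98.5%. The median difference over all genes was 0.0095, and GRE2 held the largest absolute difference, 0.82, among genes with a mean of at least 11. Of the 5 genes at least 2-fold higher and the 15 at least 2-fold lower, only YGL188C-A had a mean of at least 7. Below a mean of 5 the median SE was 0.514 over 103 genes, against 0.0814 over the 2281 genes between 11 and 13.

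**Figure D2:**
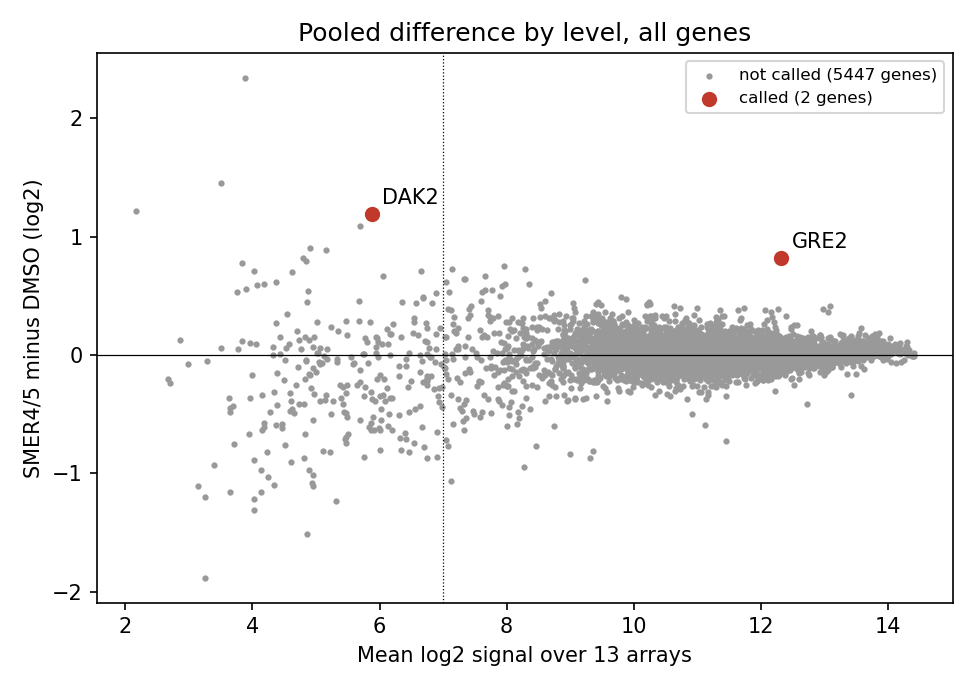
Pooled SMER4 and SMER5 minus DMSO (log2 difference, vertical axis) against the mean log2 signal over 13 arrays (horizontal axis), one point per gene, with GRE2 and DAK2 in red and a dotted line at a mean of 7. The scatter widens toward dim genes: the 95th percentile of the absolute difference is 1.22 below a mean of 5 and 0.137 from 13 upward.

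On 747 genes (13.7%) both treated arrays lay above all 3 DMSO arrays, and on 651 genes (11.9%) both lay below them, 25.7% of all genes together. The split turned under other scalings, with 740 above and 789 below after quantile normalization and 627 above and 805 below after median centring. Besides GRE2 and DAK2, the 10 genes with the largest positive difference and the 12 with the largest negative difference among the non-overlapping genes with a mean of at least 7 are described here. None of these 22 passed the test, with limma adjusted p of 0.192 to 0.897. LEU2, a gene altered in the strain, lay at 7.76 to 8.25, so a mean of at least 7 does not by itself show a signal above background.

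Of the 10 genes with the higher signal, RSB1 and WSC4 encode membrane proteins. RSB1, a sphingolipid long-chain base transporter and also a Pdr1 target, had 8.36 with SMER4 and 8.85 with SMER5, against 7.77, 8.24 and 7.61 with DMSO, a difference of 0.73 ± 0.212 (SE). WSC4, of the family of cell wall stress sensors, had 9.93 and 10.08, against 9.38, 9.85 and 9.29 with DMSO. For both genes the nearest solvent array was DMSO replicate 2. A vacuolar gene was also among them. ATG15, a vacuolar lipase that breaks down autophagic bodies, had 9.28 with SMER4 and 9.36 with SMER5, against 8.12, 9.001 and 8.94 with DMSO.

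The other genes with a higher signal had unlike roles. NUT2, a subunit of Mediator, had 7.89 with SMER4 and 8.68 with SMER5, against 7.67, 7.53 and 7.401 with DMSO, so that the SMER5 array set most of its difference of 0.75 ± 0.208. XBP1, a stress-induced repressor, had 6.65 and 6.67, against 6.01, 6.40 and 5.76, so it was under 7 on all 5 arrays and met the limit on the mean through other treatments, as IRC15 and ALP1 did. BFA1, which holds back mitotic exit, had 8.29 and 8.38, against 7.34, 7.95 and 7.80. SPO75, a gene of sporulation, had 7.597 with SMER4 and 7.71 with SMER5, against 7.09, 6.83 and 7.12 with DMSO, and of these genes it had the smallest SE, 0.131 on a difference of 0.64 (adjusted p = 0.846). RAD34, of nucleotide excision repair, and IRC15, a microtubule-associated protein, had differences of 0.67 and 0.55, and ABM1 had 0.53.

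Of the 12 genes with the lower signal, MAL33 had the smallest adjusted p. MAL33, an activator of maltose genes, had 8.64 with SMER4 and 8.56 with SMER5, against 9.50, 9.27 and 9.62 with DMSO, a difference of −0.87 ± 0.126 (limma, adjusted p = 0.192). MTH1, a repressor of hexose transporter genes, had 9.01 and 8.90, against 9.58, 9.65 and 10.06. REG2, a regulatory subunit of the protein phosphatase Glc7, had 7.62 and 7.75, against 8.49, 8.12 and 8.23, with a difference of −0.60 ± 0.11 and an adjusted p of 0.483. For each of these the range of the 2 treated arrays was smaller than that of the 3 DMSO arrays, though fewer arrays tend to give a smaller range. For MTH1, DMSO replicates 1 and 2 lay closer together than the treated arrays, and for REG2, DMSO replicates 2 and 3 did.

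The other genes with a lower signal had varied roles. HTL1, a component of the RSC chromatin remodelling complex, had 7.90 with SMER4 and 7.396 with SMER5, against 8.74, 8.27 and 8.80 with DMSO. ALP1, an arginine permease, had 5.83 and 5.46, against 6.47, 6.23 and 6.40. PRM7, a pheromone-regulated gene, had 11.38 and 11.19, against 11.81, 11.71 and 12.11, and YKR075C had 11.63 and 11.35, against 12.17, 12.10 and 12.40. These last were the brightest of the group, and for them DMSO replicate 2 was the lowest solvent array. POL4, a DNA polymerase of end joining, ARP10, of dynactin, and PAU7, whose probe set also matches other genes, had differences of −0.77, −0.58 and −0.77, and YGL188C-A and YMR158C-A had −1.06 and −0.84.

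**Figure D3:**
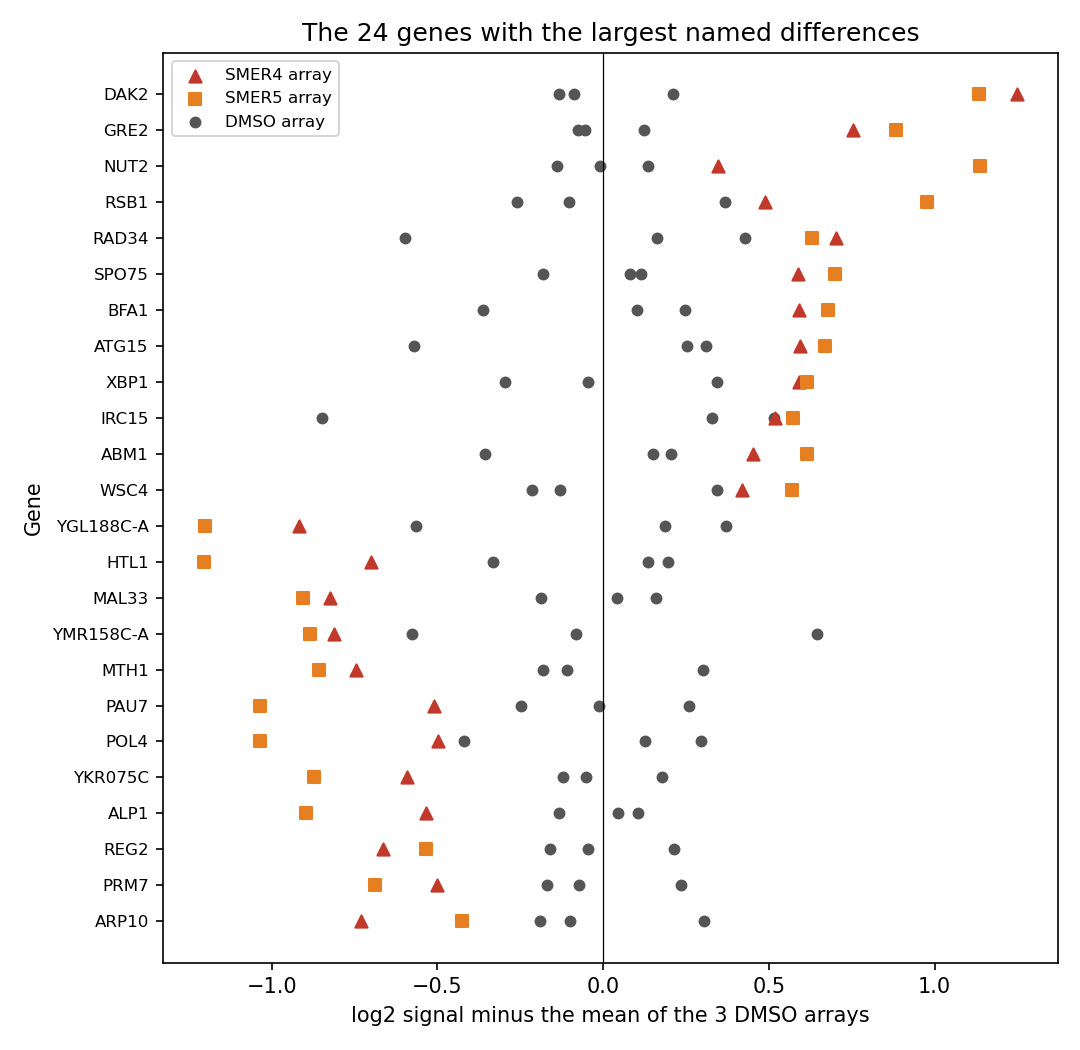
Log2 signal minus the DMSO mean for the 24 genes named against DMSO, one row per gene and one point per array of SMER4, SMER5 and DMSO. GRE2 and DAK2 passed the test, and the other 22 were chosen because their treated points lie outside the DMSO points.

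The 22 measured genes of the pleiotropic drug resistance list held 1 gene that rose, GRE2, against 0.0367% of all genes. At an unadjusted p under 0.05 in limma, 6 were higher and 0 lower, against 2.77% and 2.2% of all genes. On 11 of the 22 genes (50%, against 13.7% of all genes) both treated arrays lay above all DMSO arrays and on 1, HXT11, both lay below them, and the median difference was 0.19, against 0.01 over all genes. Without SMER4 the count above was 17, against 23.8% of all genes, and without SMER5 it was 11, against 21.5%. The list was chosen with earlier results of these data known. The median over the list, relative to the DMSO mean, was 0.13 for SMER4 and 0.2 for SMER5, against −0.06, 0.08 and −0.04 for the DMSO arrays.

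Among the pumps, SNQ2 had 12.27 with SMER4 and 12.45 with SMER5, against 12.11, 12.14 and 12.07 with DMSO, a difference of 0.25 ± 0.0814. YOR1 had 11.53 and 11.96, against 11.30, 11.47 and 11.33, a difference of 0.38 ± 0.116. PDR5, the best known of the pumps, had 13.41 and 13.55, against 13.41, 13.36 and 13.11. SNQ2 and YOR1 were higher with SMER5 than with SMER4, and PDR5 overlapped the solvent arrays. PDR15, a relative of PDR5, differed by 0.23, the weak acid pump PDR12 by 0.22, the polyamine exporters TPO1 and TPO4 by 0.31 each, and QDR2 and QDR3 by 0.12 and 0.18, all with treated arrays above the DMSO arrays and adjusted p of 0.889 to 0.914. The regulator PDR3 had 9.58 with SMER4 and 9.83 with SMER5, against 9.33, 9.44 and 9.08 with DMSO, and PDR1 had 11.56 and 11.68, against 11.58, 11.49 and 11.38. PDR3 lay above its solvent arrays on both treated arrays and PDR1 did not.

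The same list was counted array by array. Members above all 3 DMSO arrays numbered 11 of 22 on the SMER4 array, 17 on SMER5, 13 on SMER2, 20 and 18 on SMER1, 22 on SMER3, and 16 and 15 on rapamycin. SMER4 had the fewest of these arrays and SMER3 the most. Of all genes, 21.5% lay above on the SMER4 array, 23.8% on SMER5, 20% on SMER2, 49.3% and 46.7% on SMER1, 40% on SMER3, and 54.1% and 51.5% on rapamycin. The higher counts with SMER1, SMER3 and rapamycin thus stood beside higher shares of all genes. The comparisons with DMSO share the 3 solvent arrays.

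Many genes for making ribosomes lay below the solvent arrays by small amounts. Of 106 ribosome biogenesis genes, none passed the test in limma (0 called). At an unadjusted p under 0.05 in limma, 0 were higher and 2 lower, against 2.77% and 2.2% of all genes. On both treated arrays 47 (44.3%, against 11.9% of all genes) were below all DMSO arrays and 0 above, with a median difference of −0.11. Without SMER4 the count below was 81, against 22% of all genes, and without SMER5 it was 51, against 17.6%. Counted array by array, 69 were below with SMER2 (29.9% of all genes) and 99 with SMER3 (37.4%). All 106 were below on each SMER1 array (34.2% and 36.3% of all genes) and each rapamycin array (29.3% and 30.4%). The list median was −0.07 for SMER4 and −0.14 for SMER5, against 0.08, −0.03 and −0.04 for the DMSO arrays. DMSO replicate 1 stood farthest from the treated arrays on this list. The ribosome assembly factor NOP53 had 11.68 with SMER4 and 11.57 with SMER5, against 12.24, 11.77 and 11.88 with DMSO. SSF1, another assembly factor, had 11.36 and 11.19, against 11.76, 11.44 and 11.54, while NOP1, which methylates ribosomal RNA, had 13.45 and 13.36, against 13.36, 13.43 and 13.19. NOP1 overlapped the solvent arrays. Of the 21 genes of RNA polymerases I and III, 9 (42.9%, against 11.9% of all genes) were below and 1 (4.76%, against 13.7%) above. Their median was −0.07, and RPA12 at −0.18 and the initiation factor RRN3 at −0.19 were among the genes below. Without SMER4 or without DMSO replicate 3, 14 were below, against 22% and 26.2% of all genes. With SMER2 15 were below (29.9% of all genes). The 128 cytosolic ribosomal protein genes had 2 above (1.56%, against 13.7% of all genes) and 3 below (2.34%, against 11.9%). Their median was 0.02, and its sign turned after quantile normalization, with the replicate block and without SMER4 or DMSO replicate 3. The count below was 28 after quantile normalization, against 14.5% of all genes, and 74 without DMSO replicate 3, against 26.2% of all genes. Neither of these lists held a gene called or at an unadjusted p under 0.05 in limma (0 each, against 0.0367% and 4.97% of all genes).

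Several cell wall genes lay above the solvent arrays. Of the 18 measured genes of the cell wall integrity list, 9 (50%, against 13.7% of all genes) were above all DMSO arrays and 0 (against 11.9%) were below. The list median was 0.10, against 0.04, 0.06 and −0.08 for the DMSO arrays. Counted array by array, 4 were above with SMER2 (20% of all genes) and 8 with SMER3 (40%). On each SMER1 array 13 were above (49.3% and 46.7% of all genes), and on each rapamycin array 17 (54.1% and 51.5%). Below were 4 with SMER2 (29.9% of all genes) and 3 with SMER3 (37.4%). On SMER1 4 and 5 were below (34.2% and 36.3%), and on rapamycin 0 and 1 (29.3% and 30.4%). None of the 18 was called in limma or had an unadjusted p under 0.05 (0 each, against 0.0367% and 4.97% of all genes). PST1, a cell wall protein, had 11.89 with SMER4 and 12.01 with SMER5, against 11.37, 11.77 and 11.71 with DMSO. The kinase SLT2, at the end of the cell wall integrity cascade, had 11.59 and 11.63, against 11.59, 11.53 and 11.41, a difference of 0.10 ± 0.0722. For SLT2 the SMER4 array was barely above DMSO replicate 1.

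The stress and nutrient lists held no called gene in limma. Each of those counted here held at most 2 genes at an unadjusted p under 0.05, against 4.97% of all genes. Their counts beyond the DMSO arrays stand against 13.7% of all genes above and 11.9% below. The 33 general stress genes had 2 above, 2 below and a median of 0.10, with HSP12, a small heat shock protein, at 12.001 with SMER4 and 12.44 with SMER5, against 11.39, 11.89 and 12.17 with DMSO. The 22 heat shock factor genes had 6 above and 0 below (median 0.09), the 28 Yap1 genes 6 and 2 (0.03), and the 23 sulfur amino acid genes 5 and 0 (0.11). SRX1, the sulfiredoxin, had 9.08 and 8.94, against 8.50, 8.71 and 8.54, and MET28, a transcription factor of sulfur metabolism, had 8.99 and 9.18, against 8.57, 8.66 and 8.77. Both of these genes had treated arrays above every solvent array and neither passed the test. The 21 nitrogen catabolite repression genes had 4 above, 0 below and a median of 0.02. The 8 retrograde response genes, whose products feed glutamate synthesis, had 2 above and 0 below (0.07). In the 35 respiration genes 12 (34.3%) were below and 1 above, with a median of −0.01. Without DMSO replicate 1, 24 of them were below, against 16.2% of all genes. In the 36 proteasome genes 1 was below and 3 above. The medians of the Yap1 and respiration lists changed sign without DMSO replicate 3 and with the replicate block. That of the respiration list also changed sign without DMSO replicate 2. With the block the heat shock factor median was −0.001. TOR1, TOR2 and KOG1, of the TOR complexes, had differences of −0.09, −0.14 and 0.05, and MET30, a ubiquitin ligase subunit, had 0.03. Its target MET4, an activator of sulfur genes, had −0.20.

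**Figure D4:**
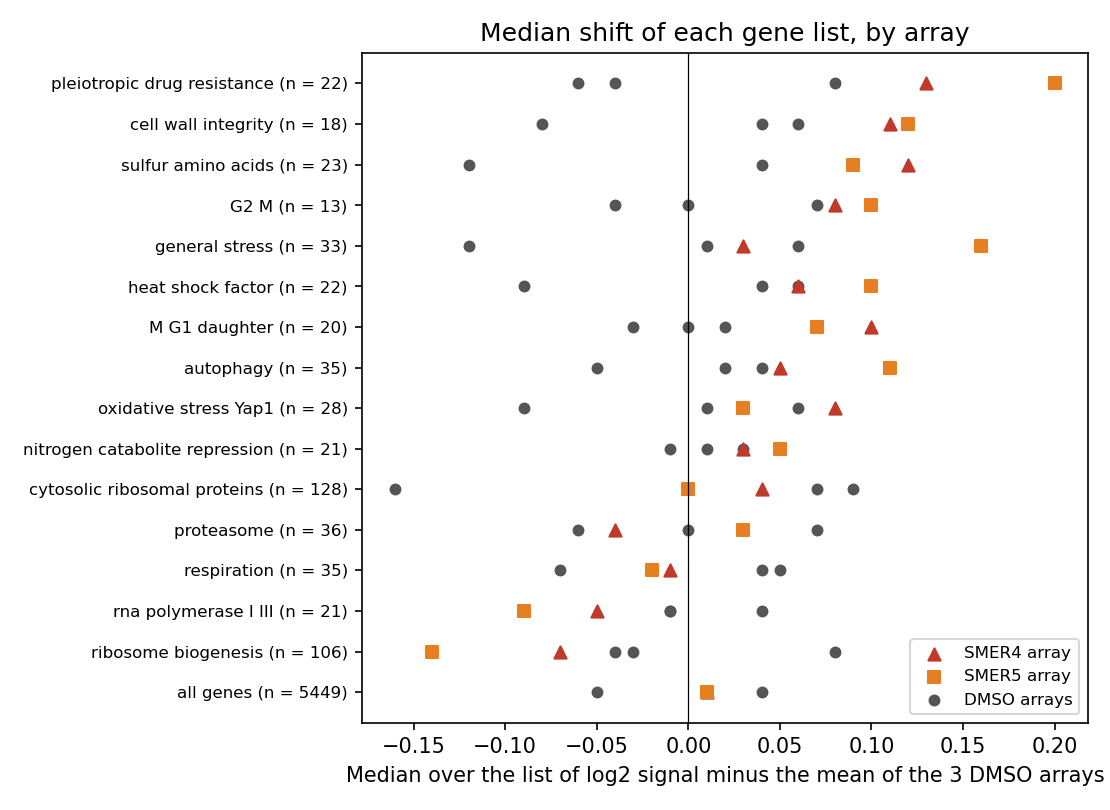
Median log2 signal minus the DMSO mean over the genes of each list, one point per array, with all genes as a row of their own. The drug resistance list is at 0.13 for SMER4 and 0.2 for SMER5 and the ribosome biogenesis list at −0.07 and −0.14, while the DMSO points of these lists lie between −0.06 and 0.08.

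SMER4 and SMER5 were compared with each other, 1 array each. No gene was called in limma (0 of 5449, or 0%; 63 genes, 1.16%, at an unadjusted p under 0.05; smallest adjusted p 0.454), and the lone arrays were assumed to vary like the replicated groups. The 95% interval lay within 2-fold for 4981 genes (91.4%), but not for most of the dim ones. It was taken gene by gene and rests on that assumption, so it does not bound the effect of either compound. The 5 largest positive differences among genes with a mean of at least 7 were those of YDL218W (1.19, with 6.64 for SMER4 and 5.45 for SMER5), YCR102C (1.13, with 6.91 and 5.77), RCK1, a protein kinase of the oxidative stress response (0.98), MLS1, malate synthase (0.68) and YNL194C (0.66). The 5 largest negative ones were those of NDE2, an external NADH dehydrogenase of mitochondria (−1.16, with 5.92 for SMER4 and 7.07 for SMER5), SPS19, a peroxisomal dienoyl-CoA reductase (−1.05, with 10.12 and 11.18), the kinase PRR2 (−1.04), MDJ2, a mitochondrial chaperone (−0.93) and NUT2 (−0.79). The limit of 7 was on the mean over 13 arrays, and 4 of these 10 genes (YDL218W, YCR102C, RCK1 and YNL194C) were under 7 on both arrays compared. SPS19 was the brightest. Against DMSO each compound alone called 0 genes in limma (0%), with 78 genes (1.43%) at an unadjusted p under 0.05 for SMER4 and 211 (3.87%) for SMER5.

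Against rapamycin, the pool differed across the genome. With limma, 3174 genes (58.2%) were called, 1092 higher with SMER4 and SMER5 (20%) and 2082 lower (38.2%), and after quantile normalization the split was 1485 higher and 1620 lower. Over all genes, the pool minus rapamycin had a median of −0.153 on the deposited scale, which quantile normalization moved to −0.019. All 21 nitrogen catabolite repression genes were lower in the pool (median −4.21) and all 106 ribosome biogenesis genes were higher (median 1.74), as were all 21 genes of RNA polymerases I and III (1.39). Of 33 general stress genes 32 were lower, of 35 autophagy genes 27, of 18 cell wall genes 17 and of 35 respiration genes 30.

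The genes of nitrogen use gave the widest gaps. DAL80, a repressor of these genes that is itself induced on poor nitrogen, had 5.56 with SMER4 and 5.79 with SMER5, against 12.82 and 12.63 with rapamycin, a difference of −7.05 ± 0.256 (SE; limma adjusted p = 3.94e-07). Its signals with SMER4, SMER5 and DMSO were near those of the deleted MET17, so the difference is at least of this size. DUR3, a urea transporter, had 8.51 and 8.52, against 13.56 and 13.55 with rapamycin (−5.04 ± 0.158; adjusted p = 2.6e-07), and the proline permease PUT4 differed by −5.47 ± 0.188 (2.92e-07). With DMSO, DUR3 was at 8.95, 8.74 and 8.35, so the treated arrays lay within the range of the solvent arrays. The ribosome assembly gene SSF1 differed by 1.86 ± 0.141 (1.29e-05), being higher with SMER4 and SMER5. In the drug resistance list, 5 of 22 genes were higher in the pool and 8 were lower, shares near the 20% and 38.2% of all genes, with RSB1 at 8.36 with SMER4 and 8.85 with SMER5, against 7.27 and 6.94 with rapamycin (1.5 ± 0.232; adjusted p = 0.00065), and QDR3 at −1.62 ± 0.0819. GRE2 and DAK2 did not pass the test here, with differences of 0.12 ± 0.0844 (adjusted p = 0.267) and −0.17 ± 0.113 (0.237).

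Against SMER2, the pool had 15 genes called in limma (0.275%), of which 14 were higher with SMER4 and SMER5 (0.257%) and 1 lower (0.0184%), with 486 genes (8.92%) at an unadjusted p under 0.05. On all 15 the single SMER2 array lay outside the range of the SMER4, SMER5 and DMSO arrays, and only DAK2 was also called against DMSO. Phosphate genes made up 5 of the 15, out of 17 measured genes of the phosphate list, against 0.275% called among all genes. PHO89, a sodium-phosphate transporter, had 12.36 with SMER4 and 12.56 with SMER5, against 10.04 with SMER2 (2.42 ± 0.167; adjusted p = 0.000948), while DMSO gave 12.53, 12.48 and 12.46. The secreted acid phosphatase PHO5 had 12.95 and 12.95, against 11.74 with SMER2 (1.21 ± 0.139; adjusted p = 0.011). PHM6, SPL2, a regulator of phosphate uptake, and the vacuolar phosphatase PHO8 were higher by 1.39, 0.95 and 0.50.

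Enzymes of the mitochondrial citrate pathway numbered 2 of the 15. The 8 measured retrograde response genes, among them IDH1, held 2 of the 15, against 0.275% called among all genes. IDH1, a subunit of isocitrate dehydrogenase, had 12.49 with SMER4 and 12.51 with SMER5, against 11.72 with SMER2 (0.78 ± 0.0722; adjusted p = 0.00636), and aconitase, ACO1, was higher by 0.55. PDH1, of propionate breakdown, was higher by 1.30, DAL1, allantoinase, by 1.29, SPO75 by 1.29, the kinetochore protein CTF19 by 1.45, YLR156W by 0.99 and YHK8 by 0.95. DAL1 was dim, at 6.19 with SMER4 and with SMER5 and at 4.90 with SMER2, under the floor of 5. The probe set of YLR156W also matches other genes. SRL3 was the gene that was lower, with 9.73 and 9.83, against 10.47 with SMER2 (−0.69 ± 0.0761; adjusted p = 0.00921). SMER2 had 1 array, assumed to vary like the others, and the count was 6 without SMER4, 3 without SMER5, 9 without either of the SMER1 with rapamycin arrays and 0 with the arrays of the compared groups alone.

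**Figure D5:**
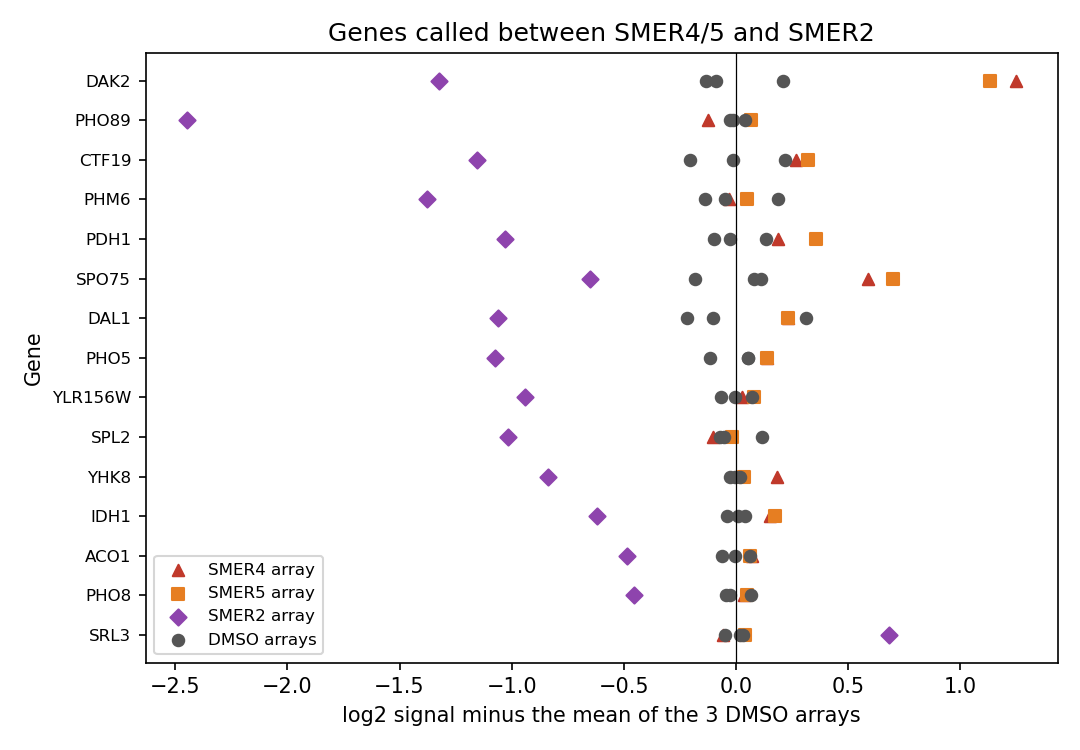
Log2 signal minus the DMSO mean for the 15 genes called between the pool and SMER2, one row per gene and one point per array of SMER4, SMER5, SMER2 and DMSO. The SMER2 points stand apart from the other 5 on every row, and SRL3 is the row on which SMER2 is the highest.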

How the data were processed

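The deposited values were log2 signals of 5716 probe sets on 13 arrays, with the log2 scale judged from their range of 0 to 14.67. The authors' steps of probe summary, background correction and normalization are not given in the sources used here. Per the labels' protocols, RNA came from the RiboPure-Yeast kit and was labelled as biotin cRNA by the One-Cycle assay. Of the probe sets, 5498 had 1 gene name in the platform table and 218 had none. Where a gene had several (47 genes) the brightest was kept, giving 5449 genes, and 12 symbols were updated.

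The deposited values were fitted without renormalization by limma 3.58.1 in R 4.3.3, with 7 group means over 13 arrays (SMER4 and SMER5 as 1 mean) or 8 means (the compounds apart). Tests were two-sided, with Benjamini-Hochberg adjustment over all genes, and a gene was called at an adjusted p under 0.05. The fit was tested on simulated data. Precision is limited by how few arrays there were. Members and gene lists were chosen with earlier results of these data known. Named genes were up to 12 in each direction against DMSO (5 between SMER4 and SMER5), called genes first, then those whose 2 treated arrays lay beyond all DMSO arrays (no such condition between SMER4 and SMER5) with a mean of at least 7, up to 2 per direction in each list, and all drug resistance and strain marker genes. Alternatives were quantile normalization, median centring, a floor of 5, leaving out the dimmest 25% and the mean of probe sets. Others were an intensity trend set together with a robust prior, fewer arrays, a replicate block and leaving out each array. Testing all 5716 probe sets was chosen after seeing the data.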

Additional observations from a re-analysis of the deposited data

How the results depend on the processing

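Of the 2 genes called against DMSO, 1 was called under each of 3 alternatives, each time GRE2. These were quantile normalization, leaving out the dimmest 25% of genes, and the intensity trend with the robust prior. The 5 arrays of the pool and DMSO alone also called 1, but this was YGL235W, named after its values were seen, with 5.89 for SMER4 and 5.52 for SMER5, against 3.27, 3.40 and 3.42 with DMSO. Leaving out 1 array gave 0 to 3 calls, and 78 to 461 genes at an unadjusted p under 0.05, against 172 without the dimmest genes. Non-overlapping genes numbered 2135 to 2497 when 1 of the 5 arrays was left out, since fewer arrays have to agree. SMER5 alone called 1 gene without the dimmest genes (GRE2), with the floor (DAK2) and with the trend (GRE2), and 0 to 1 when arrays were left out. SMER4 alone called 1 with the floor (DAK2) and with the groups compared only (YGL235W), and 0 to 1 when arrays were left out. The count against SMER2 was 3 to 18 when arrays were left out and 0 with the groups compared only. The count against rapamycin was 2506 to 3267. SMER4 minus SMER5 called 0 genes under every alternative run. The cause of these changes was not tested. Same-numbered deviations correlated at 0.0705 to 0.598 over 6 pairs of groups. All replicate 1 values were at least 0.43. Those under 0.1 were of DMSO replicate 2, with rapamycin (0.0848) and with SMER1 (0.0705). Since not all were above 0.1, the numbers were not taken to pair the arrays, though all values were above 0. Between groups of 2 arrays each, both replicates give the same value, 0.436 to 0.598. The count of genes called depends on whether the numbers are used. With a replicate block, 815 genes were called against DMSO (389 higher, 426 lower), 1913 had an unadjusted p under 0.05, 82 were called for SMER5 alone and 102 against SMER2. Of list medians under the alternatives, 762 stayed within the spread between replicates and 51 did not. Dim genes set the limit of depth, with a median SE of 0.514 below a mean of 5.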

Other observations

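The 218 probe sets without a gene name in the platform table held no call between the pool and DMSO (limma, 0 called; 18 at an unadjusted p under 0.05; smallest adjusted p 0.249). Testing all 5716 probe sets together called 2, with 291 at an unadjusted p under 0.05 in limma.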
